A study of Mus musculus with 6 samples.

Results

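The matrix metalloproteinases (MMPs), the ADAMTS proteases, the ADAMTS-like proteins and the tissue inhibitors of metalloproteinases (TIMPs) were followed in the RNA of mouse molar pulp. Members were chosen by gene symbol, with earlier results of these data known. Every gene of the count table named Mmp, Timp, Adamts or Adamtsl with a number was taken, with Mmp20, the enamel protease, left out. This gave 46 of the 27506 genes in the table, of which 18 were MMPs, 19 ADAMTS proteases, 5 ADAMTS-like proteins and 4 TIMPs. The RNA came from dental pulp of the mandibular first molar of C57BL/6 mice at postnatal day 3.5, at the onset of root formation. The 3 control libraries were labelled Ror2fl/fl, and the 3 mutant libraries Osr2-Cre;Ror2fl/fl. Mice of both groups therefore carried floxed alleles of Ror2, a receptor for noncanonical Wnt ligands, and the mutants carried Cre in addition. The Osr2-driven Cre acts in the dental mesenchyme and the alveolar bone and leaves the dental epithelium untouched, so that epithelial cells kept Ror2. A letter code in the names reads WW for control 1, OW for controls 2 and 3 and OR for all mutants. None of these codes is explained.

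MMPs and ADAMTS proteases are secreted or membrane-bound zinc enzymes that cut collagens, proteoglycans and other matrix proteins, and most are made as inactive precursors. TIMPs bind and block their active sites. ADAMTS-like proteins share the ancillary domains of ADAMTS proteases but lack the protease domain, and several of them bind fibrillin microfibrils. In teeth, these enzymes are known for the remodeling of basement membrane, dentin matrix and the surrounding connective tissue.

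The libraries held 56134770 to 62628940 estimated counts. Ror2 itself was measured at 38.2, 36.2 and 36.7 CPM (counts scaled to library size and then between libraries by edgeR's TMM method) in the controls and 27.9, 28.1 and 26.3 in the mutants, a log2 fold change of -0.43 with a standard error (SE) of 0.08 and an adjusted p of 0.013 in edgeR's quasi-likelihood test. That call was lost without control 2 (adjusted p = 0.066) or control 3 (adjusted p = 0.075). The odontoblast list (Dspp, Dmp1, Nes, Phex) and the dental mesenchyme list were present in each library, and the dental epithelium list summed to 171189 to 191568 CPM in controls and 184788 to 255038 in mutants, so epithelial RNA made up a large share of each library. In several marker lists, sums or single genes differed between the groups. The neutrophil list summed to 2.64 to 15.7 CPM in controls and 29.6 to 183 in mutants, with 3 of 6 tested genes called higher and no marker at 0 in any library. The skeletal muscle list summed to 8.13 to 31.1 CPM and 1.91 to 2.2, with 5 of 5 tested genes called lower and Myog at 0 in control 3 and mutant 1. The cartilage list summed to 53.1 to 69.9 CPM and 19.6 to 33.4, with 4 of 4 tested genes called lower and Matn1 at 0 in control 2, mutant 1 and mutant 3. The smooth muscle and pericyte list summed to 303 to 387 CPM and 230.5 to 282, with 1 of 6 genes (Abcc9) called lower. The dental mesenchyme list summed to 449 to 514 CPM and 539.9 to 603, with 2 of 8 genes (Msx2, Dlx2) called higher. Its other genes went both ways. Log2 fold changes were 0.05 and 0.23 for Lhx6 and Dlx1. They were -0.19, -0.22, -0.50 and -0.64 for Msx1, Barx1, Pax9 and Lhx8. The erythroid list summed to 782 to 1318 CPM and 243 to 932, which overlapped, with 2 of 5 genes (Hba-a1, Alas2) called lower. Sums also overlapped between the groups in the macrophage, osteoclast, bone, endothelium, Schwann cell, odontoblast and dental epithelium lists. Of these, the macrophage list had 1 gene called higher and 2 lower, the bone list 1 lower and the Schwann cell list 1 higher.

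Of the 46 members, 41 passed the filter on low counts and were tested. The other 5, Mmp3, Mmp21, Mmp24, Mmp27 and Adamts13, had at most 13 counts in any library. Among the 41, 4 were called lower in the mutants at an adjusted p under 0.05 and 0 were called higher. Over all 19330 genes tested, 20.2% were called, 9.84% lower and 10.4% higher, so the 9.76% of tested members called lower lay near the share over all genes. With edgeR's test, 8 members were lower and 3 higher at an unadjusted p under 0.05. The share over all genes was not counted at this threshold, so no lean of the members can be read from these counts. DESeq2 called 7 members lower and 1 higher, against 2642 lower and 2562 higher of 22140 over all genes. The mutant libraries lay above every control for 5 members and below every control for 4, 22.0% together. Over all tested genes these shares were 22.6% above, 22.1% below and 44.7% together. The median log2 fold change was -0.04 over the members and 0.0074 over all genes, and 20 members had a positive and 21 a negative value. Nothing in the labels says that the libraries came from separate animals, so the p-values measure the spread between these libraries. The study's methods take n as mice or as independent experiments. The number codes in the sample names begin differently in controls and mutants and are not explained. Any difference in collection or handling therefore cannot be told apart from genotype. In RNA from whole pulp, fewer cells of a type and less RNA per cell cannot be told apart.

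The ADAMTS-like proteins held 2 of the 4 called members. Adamtsl3, which encodes a secreted matrix glycoprotein, lies at chr7:82335694-82614450 on the plus strand (mm10, GENCODE M21). It was measured at 4.08, 5.22 and 5.33 CPM in the controls and 2.15, 1.32 and 1.85 in the mutants. Each mutant library lay below the lowest control by a wide margin, and the mean fell by 63.6%. The log2 fold change was -1.46 (SE 0.22, n = 3 against 3, adjusted p = 0.0054 by edgeR's quasi-likelihood test, with the Benjamini-Hochberg adjustment over all tested genes). Adamtsl3 was called lower in each of 14 alternative analyses, with log2 fold changes of -1.62 to -1.28 and adjusted p-values of 1.2e-07 to 0.032.

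Adamtsl4, a fibrillin-binding protein known from inherited lens dislocation, lies at chr3:95676201-95687917 on the minus strand. It was measured at 8.65, 12.1 and 11.7 CPM in the controls and 8.56, 5.77 and 4.81 in the mutants. Mutant 1 lay just under control 1, and the other mutants were well below all controls. On the log2 scale the change was -0.76 (SE 0.23), with an adjusted p of 0.049 by edgeR's quasi-likelihood test. This call held in 7 of 14 alternatives and was lost when control 1, 2 or 3 or mutant 2 or 3 was left out, with adjusted p-values of 0.053 to 0.16.

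Of the other ADAMTS-like genes, Adamtsl2, whose product binds the latent TGF-beta binding protein LTBP1, had 9.53, 28.1 and 20.5 CPM in the controls and 12, 11.6 and 13.7 in the mutants. The controls thus spread more widely than the mutants, and control 1 was lowest of the 6 libraries. Its log2 fold change was -0.64 (SE 0.33, adjusted p = 0.18 by edgeR), and without control 1 it was -0.98 (adjusted p = 0.019). Adamtsl5 had 8.78 to 10.6 CPM in controls and 10.7 to 16 in mutants without overlap, at a log2 fold change of 0.36 (adjusted p = 0.16 by edgeR). Adamtsl1 had a log2 fold change of 0.05, or -0.02 with a correction for GC content. Adamtsl2 and Adamtsl5 were named after their values were seen.

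Of the ADAMTS proteases, 2 were called lower. Adamts15 is one of the enzymes that cleave the large chondroitin sulfate proteoglycans versican and aggrecan, and lies at chr9:30899155-30922452 on the minus strand. It was measured at 3.12, 2.78 and 2.59 CPM in the controls and 0.93, 2.08 and 1.25 in the mutants. All mutants lay below all controls, with mutant 2 the nearest. Its log2 fold change was -0.99 (SE 0.29, adjusted p = 0.048 by edgeR's quasi-likelihood test), and the call held in 7 of 14 alternatives. It was lost without control 1, 2 or 3, mutant 1 or mutant 3, with adjusted p-values of 0.084 to 0.13.

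Adamts18, an orphan protease of this family, lies at chr8:113697126-113848738 on the minus strand. It was measured at 1.27, 1.84 and 1.57 CPM in the controls and 0.863, 0.849 and 0.932 in the mutants, or 49 to 107 counts a library. The mutants were closely alike and lay below the lowest control. The log2 fold change was -0.82 (SE 0.23, adjusted p = 0.042 by edgeR's quasi-likelihood test), and the call held in 8 of 14 alternatives. It was lost without control 2, control 3, mutant 1 or mutant 2, with adjusted p-values of 0.062 to 0.18. None of the 4 called genes shared exon bases or 75-base stretches with another gene. Their decreases ran alongside lower sums of the cartilage, the skeletal muscle, and the smooth muscle and pericyte lists. In the last list 1 of 6 genes was called, and Acta2 alone went the other way (log2 fold change 0.31). The erythroid sums overlapped, with mutant 2 (932 CPM) above control 2 (782) and control 3 (877). The part of those tissues in the decreases was not tested.

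**Figure D1:**
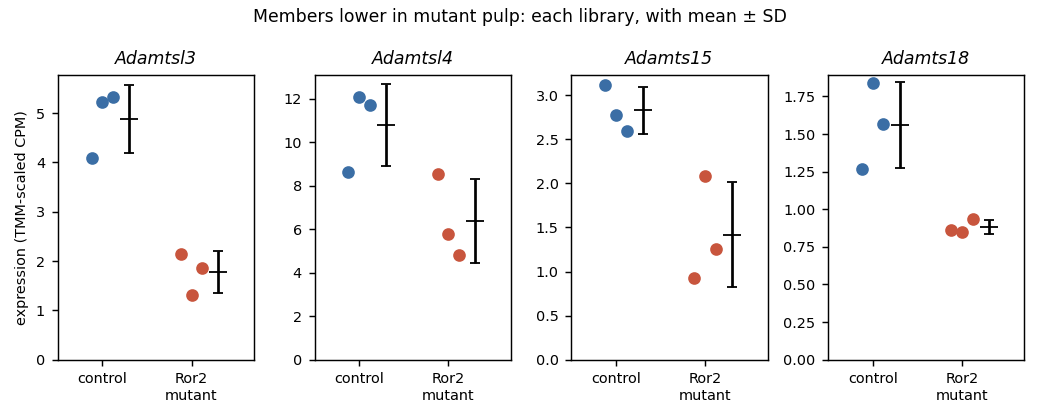
Expression in TMM-scaled CPM (vertical axis, from 0, own scale in each panel) of the 4 members called lower, with 1 point for each of 3 control (blue) and 3 Ror2 mutant (red) libraries and the mean ± SD beside them. The groups are far apart for Adamtsl3 (4.88 ± 0.688 against 1.77 ± 0.421) and nearly touch for Adamtsl4, where mutant 1 (8.56) lies just under control 1 (8.65).

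The promoter sequences of the 4 called members, whose share was near that over all genes, were read where the RefSeq table held an entry. That table uses GRCm38.p6, the sequence of mm10, and each window is 250 bases ending at the base before the annotated start. The table held windows for 31 of the 46 members. Adamts15 is named only. Beside the 3 called genes stand the members of their roles with the highest level per kb of exon, as the mean over 6 libraries. These are Adamtsl5 for the ADAMTS-like proteins and Adamts17 for Adamts18, neither of which passed the test. In the controls alone, Adamtsl4 (mean 2.58 CPM per kb) and Adamtsl2 (2.43) lay above Adamtsl5 (2.08). The windows lie at chr7:82335444-82335693 (plus, Adamtsl3), chr3:95687918-95688167 (minus, Adamtsl4), chr8:113848840-113849089 (minus, Adamts18), chr10:80348449-80348698 (minus, Adamtsl5) and chr7:66839485-66839734 (plus, Adamts17). Each is written 5′ to 3′ on the gene's strand, with motif matches in capitals:
Adamtsl3: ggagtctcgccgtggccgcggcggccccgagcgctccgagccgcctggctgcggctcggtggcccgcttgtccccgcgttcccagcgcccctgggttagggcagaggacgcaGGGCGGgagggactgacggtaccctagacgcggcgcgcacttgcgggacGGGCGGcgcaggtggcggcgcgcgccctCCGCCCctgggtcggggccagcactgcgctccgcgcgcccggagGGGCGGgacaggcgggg
Adamtsl4: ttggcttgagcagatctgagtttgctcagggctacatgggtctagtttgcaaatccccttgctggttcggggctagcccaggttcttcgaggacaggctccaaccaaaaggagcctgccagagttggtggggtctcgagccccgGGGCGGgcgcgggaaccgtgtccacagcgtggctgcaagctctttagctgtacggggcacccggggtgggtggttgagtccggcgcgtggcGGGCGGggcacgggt
Adamts18: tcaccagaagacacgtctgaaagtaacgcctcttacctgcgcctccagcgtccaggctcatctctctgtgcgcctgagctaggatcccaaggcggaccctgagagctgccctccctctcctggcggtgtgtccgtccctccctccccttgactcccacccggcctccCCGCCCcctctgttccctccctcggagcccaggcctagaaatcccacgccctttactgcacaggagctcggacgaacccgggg
Adamtsl5: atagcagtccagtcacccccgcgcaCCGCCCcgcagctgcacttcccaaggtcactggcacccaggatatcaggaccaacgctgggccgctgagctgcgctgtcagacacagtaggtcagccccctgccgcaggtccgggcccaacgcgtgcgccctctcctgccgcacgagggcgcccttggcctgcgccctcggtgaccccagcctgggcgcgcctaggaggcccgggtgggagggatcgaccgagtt
Adamts17: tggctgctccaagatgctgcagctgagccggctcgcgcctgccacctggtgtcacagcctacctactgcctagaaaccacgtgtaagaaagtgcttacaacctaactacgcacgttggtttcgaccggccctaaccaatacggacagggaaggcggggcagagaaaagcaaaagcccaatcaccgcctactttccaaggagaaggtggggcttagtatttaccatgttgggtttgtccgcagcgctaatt

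The motifs searched on both strands were AP-1 (TGANTCA), the GC box (GGGCGG), the TATA box (TATAAA), RUNX (TGTGGT) and TCF/LEF (CTTTGA). Adamtsl3 held 4 GC boxes, the nearest ending 12 bases before the start, in a window of 80% G and C. Adamtsl4 held 2 GC boxes, Adamts18 held 1 and Adamtsl5 held 1, whereas Adamts17 held none of the 5 motifs. The RefSeq start lies 101 bases upstream of the GENCODE start for Adamts18 and 36 bases upstream of it for Adamtsl5. Over the 33 member windows, 60.6% held a GC box against 32.7% of all 32851 windows, and their median G and C content was 63.2% against 52.4%. No filter on gene type or expression was applied to all windows, whereas every member is a protein-coding gene, so the sets are unlike. The shares were 15.2% against 12.4% for the TATA box, 9.09% against 6.75% for AP-1, 12.1% against 14% for RUNX and 6.06% against 13.8% for TCF/LEF. The 3 called genes with a window thus held a motif found in most member windows, and a match of letters is a description of the window only.

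Among the other proteoglycan-cleaving ADAMTS proteases, Adamts9 was the most abundant, with 144, 226 and 206 CPM in the controls and 192, 128 and 181 in the mutants. The groups overlapped, and the log2 fold change was -0.20 (SE 0.20, adjusted p = 0.50 by edgeR). Of its exon bases, 9.18% overlap A730049H05Rik on the opposite strand, and the use of strand in counting is not given in the sources used here. Adamts1 and Adamts5, which lie side by side on chromosome 16 with 53.1 kb between them, had log2 fold changes of -0.09 and 0.13. Adamts8, which lies 20.1 kb from Adamts15 on chromosome 9 in the opposite orientation, had 0.419, 0.48 and 0.551 CPM in the controls and 1.07, 0.572 and 0.508 in the mutants. Only mutant 1 stood clearly above the controls, and the log2 fold change was 0.56 (SE 0.36, adjusted p = 0.28 by edgeR), while its neighbor Adamts15 was called lower. Adamts1, Adamts5 and Adamts8 were named after their values were seen. Adamts4 and Adamts20 had log2 fold changes of -0.13 and -0.27.

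The procollagen N-proteinases remove the amino propeptides of fibrillar procollagens, and none of the 3 passed the test. Adamts2, the principal enzyme for type I collagen, had 78.4, 127 and 117 CPM in the controls and 134, 89.3 and 105 in the mutants, with a log2 fold change of 0.02 (SE 0.21), or -0.11 with a correction for GC content. Adamts14 had 10.3, 20.9 and 19.1 CPM in the controls and 32.8, 25.5 and 17.5 in the mutants, with a log2 fold change of 0.59 (SE 0.29, adjusted p = 0.18 by edgeR). Mutants 1 and 2 lay above all controls, and mutant 3 among them. Adamts3, which also processes VEGF-C and was named after its values were seen, had 13.8 to 21.6 CPM in controls and 9.81 to 15.1 in mutants, with a log2 fold change of -0.54 (SE 0.21, adjusted p = 0.098 by edgeR).

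The remaining ADAMTS proteases include enzymes that act on fibrillin microfibrils. Adamts17, known with Adamts10 from Weill-Marchesani syndromes of short stature and lens defects, had 73.8, 80.2 and 75.7 CPM in the controls and 92.9, 63.1 and 94.3 in the mutants. Mutants 1 and 3 lay above the controls and mutant 2 below, so that the log2 fold change of 0.12 (SE 0.15, adjusted p = 0.58 by edgeR) became 0.30 (adjusted p = 0.032) without mutant 2 and -0.02 with a correction for GC content. Adamts10 had 36.6, 43.2 and 41.1 CPM in the controls and 42.8, 80.4 and 37.9 in the mutants. Mutant 2 alone stood apart here, and the log2 fold change was 0.42 (SE 0.26, adjusted p = 0.27 by edgeR) with it and 0.01 without it.

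Adamts12, a protease reported to act on cartilage oligomeric matrix protein, had 18.2, 38.2 and 31.5 CPM in the controls and 21.9, 9.84 and 17.3 in the mutants. Control 1 fell among the mutants, and the log2 fold change was -0.84 (SE 0.33, adjusted p = 0.10 by edgeR and 0.031 by DESeq2). Adamts6, named after its values were seen, had 10.4, 20.3 and 15.7 CPM in the controls and 9.69, 10.7 and 9.93 in the mutants, again with control 1 at the level of the mutants. Its log2 fold change was -0.61 (SE 0.22, adjusted p = 0.078 by edgeR and 0.030 by DESeq2), and -0.84 (adjusted p = 0.020 by edgeR) without control 1. The other tested genes of this set, Adamts7, Adamts16 and Adamts19, had log2 fold changes of -0.22, 0.15 and -0.25. Over all 18 tested ADAMTS proteases, 11 had negative values, and the median was -0.16.

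**Figure D2:**
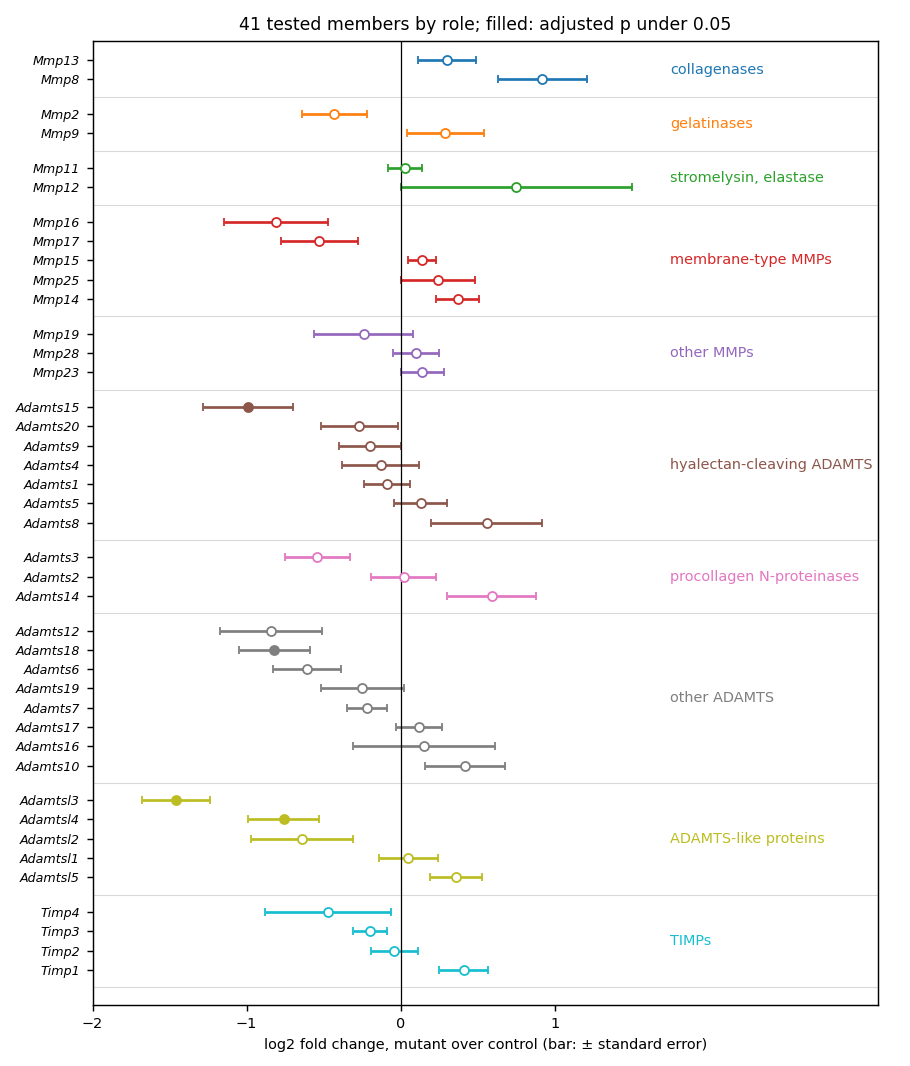
Log2 fold change, mutant over control (horizontal axis), of the 41 tested members by role, with bars of ± 1 standard error from edgeR and filled points at an adjusted p under 0.05. The 4 filled points lie at negative values, between -1.46 (Adamtsl3) and -0.76 (Adamtsl4), and the open points lie on both sides of 0.

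None of the 14 tested MMPs passed edgeR's test. At an unadjusted p under 0.05, 2 were higher and 1 lower, and the share over all genes was not counted. DESeq2 called Mmp8 higher and Mmp16 lower among the 14. Their median log2 fold change was 0.14 with 10 of 14 positive, but with a correction for GC content it was -0.08 with 6 of 14 positive. Mmp14, the membrane-type collagenase that also activates the precursor of Mmp2 at the cell surface, had 300.2, 358 and 333 CPM in the controls and 493, 428 and 359 in the mutants. All mutants lay above all controls, with mutant 3 and control 2 nearly level. The log2 fold change was 0.37 (SE 0.14, adjusted p = 0.099 by edgeR) and 0.47 (adjusted p = 0.046) without mutant 3, and over 14 alternatives it ranged from 0.16 to 0.47. Mmp15, a second membrane-type enzyme, had 36.4, 35.0 and 36.4 CPM in the controls and 38.9, 37.5 and 42.5 in the mutants, a small difference without overlap (log2 fold change 0.14, SE 0.09, adjusted p = 0.27 by edgeR), and with a correction for GC content it was -0.08. Mmp16 and Mmp17, named after their values were seen, had log2 fold changes of -0.81 (adjusted p = 0.12) and -0.53 (adjusted p = 0.16) by edgeR, and Mmp25 had 0.24.

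The gelatinases cut denatured collagen and basement membrane collagen. Mmp2 had 107, 167 and 167 CPM in the controls and 137, 101 and 89.9 in the mutants. Control 1 lay among the mutants, and the log2 fold change was -0.43 (SE 0.21, adjusted p = 0.17 by edgeR). Mmp9, the gelatinase of leukocytes and osteoclasts, had 20.9, 18.1 and 20.8 CPM in the controls and 35.2, 21.7 and 16.1 in the mutants. Mutant 1 stood above the rest, and the log2 fold change of 0.29 (adjusted p = 0.43 by edgeR) became -0.08 without it. The osteoclast list summed to 55.4 to 58.2 CPM in controls and 40.2 to 65.7 in mutants, and the smallest adjusted p among its 6 tested genes was 0.084 (Oscar).

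Of the collagenases, Mmp13, the main secreted collagenase of rodents, had 15.2, 16 and 22.2 CPM in the controls and 25.0, 23.3 and 17.4 in the mutants (log2 fold change 0.30, SE 0.19, adjusted p = 0.27 by edgeR). Mmp8, the collagenase of neutrophil granules, had 1.49, 0.892 and 0.858 CPM in the controls and 2.06, 2.46 and 1.61 in the mutants. Every mutant lay above every control, with control 1 and mutant 3 close together. The log2 fold change was 0.92 (SE 0.29, adjusted p = 0.056 by edgeR and 0.028 by DESeq2), and over 14 alternatives it ranged from 0.77 to 1.21, with 4 calls. Summed over the neutrophil list, control 1 was the highest of the controls and mutant 2 the highest of the mutants, as for Mmp8, and S100a8 was measured at 3.2, 0.635 and 0.842 CPM in the controls and 20.7, 70.2 and 10.5 in the mutants. The part of neutrophils in the Mmp8 values was not tested. Mmp13 and Mmp8 were named after their values were seen.

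Mmp8, Mmp13 and Mmp12, the macrophage elastase, lie with Mmp3 and Mmp27 in 1 cluster on chromosome 9 between 7272514 and 7581885, and these 5 genes differed widely in level. Mmp13 reached 22.2 CPM in control 3, whereas Mmp3 and Mmp27 had at most 13 and 3 counts in any library. Mmp12 had 1 to 16 counts and a log2 fold change of 0.75 with an SE of equal size. Mmp11, a stromelysin of stromal cells, had 16.3 to 17.6 CPM in controls and 15.6 to 19.0 in mutants (log2 fold change 0.03, or -0.17 with a correction for GC content). It shares 155 exon bases with Chchd10 on the opposite strand, and for the 2 genes summed the log2 fold change was 0.36 (adjusted p = 0.049 by edgeR). Mmp19, Mmp23 and Mmp28 had log2 fold changes of -0.24, 0.14 and 0.10, and the last 2 were -0.08 and -0.12 with a correction for GC content.

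The 4 TIMPs did not pass edgeR's test, with 1 of them, Timp1, at an unadjusted p under 0.05, and DESeq2 called 0. Timp1, the secreted inhibitor often induced with inflammation, had 9.11, 10.4 and 9.2 CPM in the controls and 15.8, 11.4 and 10.8 in the mutants. The mutants lay above the controls, with mutants 2 and 3 close to control 2, and the log2 fold change was 0.41 (SE 0.16, adjusted p = 0.11 by edgeR) with mutant 1 and 0.22 without it. Timp2, which holds the Mmp2 precursor at Mmp14 on the cell surface, had 207, 248 and 256 CPM in the controls and 273, 212 and 204 in the mutants (log2 fold change -0.04, SE 0.15). Timp3, the matrix-bound inhibitor that also blocks ADAMTS proteases, had 104, 113 and 117 CPM in the controls and 98.1, 87.4 and 105 in the mutants (log2 fold change -0.20, SE 0.11, adjusted p = 0.20 by edgeR), and 21.3% of its exon bases overlap Syn3 on the opposite strand. Timp4 was low, with 0.295, 0.412 and 0.34 CPM in the controls and 0.304, 0.312 and 0.136 in the mutants. Summed over the 4 genes, the TIMPs came to 319.6, 372 and 383 CPM in the controls and 388, 312 and 319.8 in the mutants, and the groups overlapped.

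Per kb of exon, the scale on which genes can be compared, Mmp14 and Timp2 were the most abundant members. Mmp14 had 55.4 ± 4.9 CPM per kb (SD, n = 3) in the controls and 71.6 ± 11.2 in the mutants, and Timp2 had 60.8 ± 6.76 and 59.0 ± 9.77. Their control ranges overlapped, so their order is not settled. Mmp2 followed at 43.6 ± 10.2 and 32.4 ± 7.35, and then, after a gap, Timp3 at 13.7 ± 0.867 and 11.9 ± 1.1. Timp1, Adamts9, Adamts2 and Adamts17 came next, at control means of 10.8, 12.7, 11.5 and 9.86, and within these 4 the control range of each overlapped that of the next. Of the called members, Adamtsl4 ranked 20 of the 46 by the mean over 6 libraries, at a control mean of 2.58. The others were lower, at control means of 0.63 (Adamtsl3), 0.273 (Adamts15) and 0.153 (Adamts18).

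**Figure D3:**
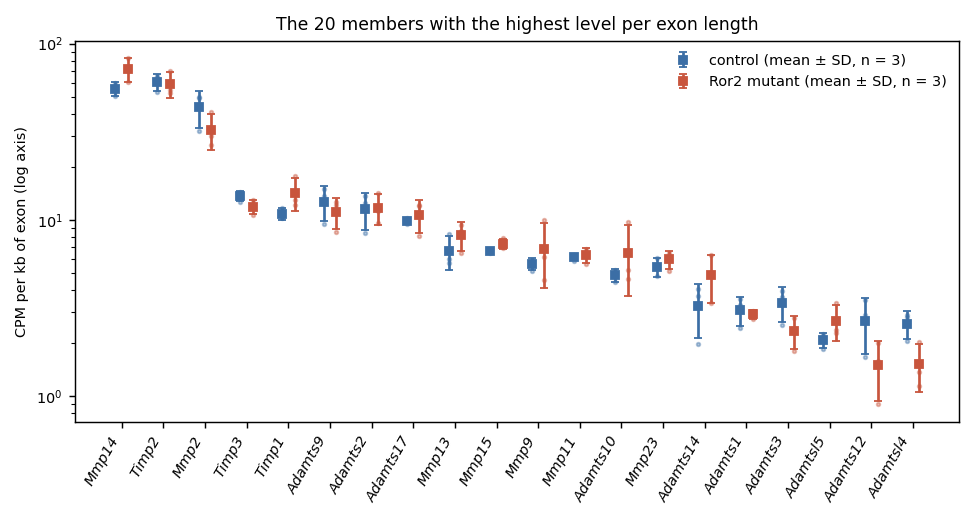
Level in TMM-scaled CPM per kb of exon (vertical log axis) of the 20 members with the highest mean over 6 libraries, as mean ± SD of 3 control (blue) and 3 Ror2 mutant (red) libraries, with each library as a small point. Mmp14, Timp2 and Mmp2 stand above the rest, from 32.4 to 71.6, and the next member, Timp3, has 13.7 in the controls.

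The 3 most abundant members act together on the cell surface, where Mmp14 binds Timp2 and the pair holds and activates the Mmp2 precursor. The level of Mmp14 over that of Timp2, both per kb, was 0.949, 0.946 and 0.85 in the controls and 1.18, 1.32 and 1.15 in the mutants. Mmp2 over Mmp14 was 0.632, 0.822 and 0.888 in the controls and 0.492, 0.417 and 0.442 in the mutants. The groups overlapped in neither ratio, although Timp2 and Mmp2 themselves overlapped. Both ratios were chosen after the values were seen, and no test was applied.

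The members also varied between libraries of 1 group. Control 1 was the lowest control for 30 of the 41 tested members (73.2%), against 41.4% of all tested genes, and mutant 1 was the highest mutant for 21 (51.2%), against 27.6%. All members summed came to 1341, 1749 and 1685 CPM in the controls and 1827, 1499 and 1483 in the mutants, so the highest and the lowest sums stood in mutant 1 and control 1. The ADAMTS proteases summed to 438, 646 and 596 CPM in the controls and 603, 475 and 533 in the mutants. Without control 1, edgeR called Adamts18, Adamts6, Adamtsl2 and Adamtsl3 lower and Mmp8 higher. Over all genes, that fit called 1389 lower and 1291 higher of 19842. Whether these values of control 1 go with its unlike letter code was not tested.

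**Figure D4:**
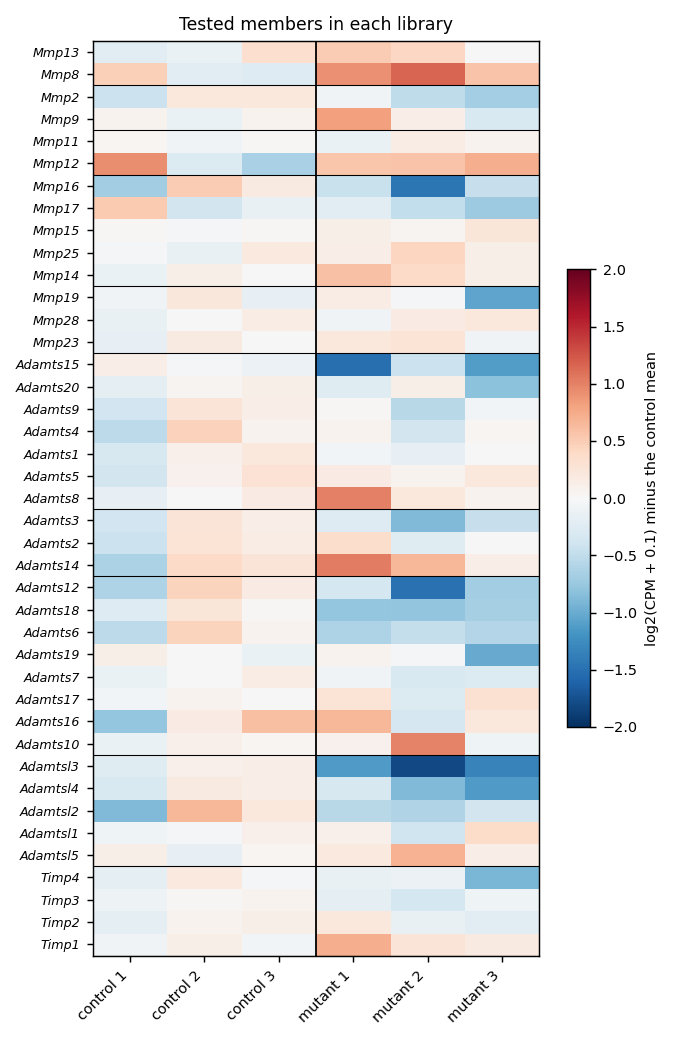
Color gives log2(CPM + 0.1) minus the control mean, from -2 (blue) to 2 (red), for each of 41 tested members (rows, by role) in each of 6 libraries (columns, controls left of the line). Control 1 is mostly blue within the controls, being lowest for 30 of 41 members, and Adamtsl3, Adamtsl4, Adamts15 and Adamts18 are blue in the mutant columns.

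Genes that activate, anchor or inhibit these proteases were listed as well, and 17 of 19 were tested. Of these, 3 were called higher and 0 lower, or 17.6% against 20.2% of all genes. At an unadjusted p under 0.05 by edgeR, 4 were higher and 4 lower, and the share over all genes was not counted. DESeq2 called 3 higher and 3 lower, against 2562 higher and 2642 lower of 22140 over all genes. Plaur, the urokinase receptor, had 16.5, 13.3 and 15.2 CPM in the controls and 26.5, 22.1 and 20.4 in the mutants (log2 fold change 0.62, SE 0.13, adjusted p = 0.019 by edgeR). A2m, the general protease trap, had 5.0, 5.85 and 7.71 CPM and 12.4, 8.2 and 10.1 (log2 fold change 0.73, SE 0.21, adjusted p = 0.042). Without control 2, control 3 or mutant 1, neither gene was called, with adjusted p-values of 0.053 to 0.15, and A2m was also not called without control 1 (0.11) or mutant 3 (0.064). For the proprotein convertase Pcsk7 the log2 fold change was 0.37 (adjusted p = 0.041), but it overlaps Rnf214 and Tagln, and summed with them it came to 0.11 (adjusted p = 0.51).

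Next by p-value stood the hyaluronan receptor Cd44, which can dock proteases at the cell surface, the convertase Pcsk6 and Reck, a membrane-anchored inhibitor of MMPs. Cd44 had 389.6, 393 and 389 CPM in the controls and 328, 257 and 321 in the mutants, all lower than the controls (log2 fold change -0.37, SE 0.12, adjusted p = 0.066 by edgeR). Reck had 53.4, 76.4 and 74.3 CPM in the controls and 58.6, 38.0 and 47.0 in the mutants, where control 1 again lay among the mutants (log2 fold change -0.51, adjusted p = 0.084). For Pcsk6 the log2 fold change was -0.62 (adjusted p = 0.081).

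**Figure D5:**
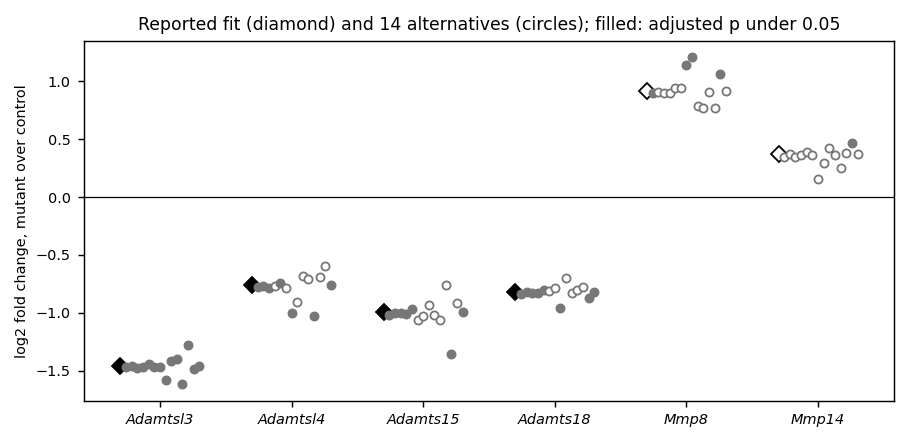
Log2 fold change, mutant over control (vertical axis), of 4 called members and of Mmp8 and Mmp14, with the reported value as a diamond, 14 alternative analyses as circles and filled symbols at an adjusted p under 0.05. Adamtsl3 is filled in each of 14, from -1.62 to -1.28, whereas Adamtsl4, Adamts15 and Adamts18 are filled in 7, 7 and 8 and kept a negative value in each.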

How the data were processed

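RNA from dental pulp of mandibular first molars was sequenced as single-end reads. The authors deposited estimated counts per gene, not normalized, for the mm10 genome. The methods name TopHat for alignment, whereas the submitters' processing notes name STAR 2.6.1d and Partek. The counter, its use of strand and the annotation are not given in the sources used here. Of the values, 47.8% were whole, zeros included, so reads fitting several genes may have been shared out. The design assumed whole counts, and the values were therefore rounded. A further 6 sample columns of that table were not used. A deposited normalized table was not used.

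With R 4.3.3, all 27506 genes of the 6 libraries entered 1 fit in edgeR 4.0.16 (TMM scaling, filterByExpr, quasi-likelihood test of genotype, two-sided, limma 3.58.1 loaded), with Benjamini-Hochberg adjustment over 19330 genes. A gene was called at an adjusted p under 0.05. CPM were divided by GENCODE M21 exon length to compare genes, and coordinates are from M21. The test was tried on simulated data. Alternatives were DESeq2 1.42.0, other scalings and filters, a GC offset, summing of genes sharing at least 20 stretches of 75 bases, a replicate block and leaving out each library. A member was described in every library where it was called, averaged at least 20 CPM or is a TIMP. Others are said to be named after their values were seen or are given by range. The members and gene lists were chosen with earlier results of these data known. No 2 libraries of a group were alike within sampling noise. An exact permutation test of 3 against 3 cannot go below 0.1 and was not used.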

Additional observations from a re-analysis of the deposited data

How the results depend on the processing

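Where edgeR called 4 members lower, DESeq2's Wald test called those and Adamts12, Adamts6 and Mmp16, 7 in all, a correction for GC content called 2 (Adamtsl3, Adamtsl4) and the fit with a replicate block 1 (Adamtsl3). Leaving out 1 library gave 1 to 4 members, which without control 1 included Adamts6 and Adamtsl2, with 1 (Adamtsl3) left without control 2 or without control 3. Against 0 called higher, DESeq2 and the GC correction each called 1 (Mmp8), summing with overlapping genes called 1 (Mmp11), and leaving out 1 library gave 0 to 2. Where edgeR called 3 related genes, all higher, DESeq2 called 6, of which 3 were lower, while the analysis without a filter, the replicate block and the GC correction each called 1, and leaving out 1 library gave 0 to 3. Over all genes, DESeq2 called 2562 higher and 2642 lower, and the GC correction 1514 higher and 1239 lower. Without control 2 or control 3, calls over all genes fell to 478 or 458 higher and 432 or 414 lower, from 2003 and 1903, and the cause was not tested. Calls over all genes were 1291 higher and 1389 lower without control 1, and 1275 and 1129 without mutant 1. They were 1960 and 1764 without mutant 2, and 2520 and 2481 without mutant 3. The log2 fold change of Ror2 was -0.43 (adjusted p = 0.058) with the replicate block, and -0.46 to -0.41 when 1 library was left out.

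The S numbers in the labels are 5, 6 and 7 in both groups, and the methods speak of pairs of samples without naming them. Deviations of same-numbered libraries correlated across genes at -0.1, -0.08 and -0.004, and those of other matchings at -0.037 to 0.1. These values gave no sign of pairing by number. They cannot exclude a pairing of mice or of dissections, which is not described. With the block, 1012 genes were called higher and 1001 lower. The median of the 14 tested MMPs turned from 0.14 to -0.08 with the GC correction. Directions reversed under it for Adamts17 (-0.02), Adamts2 (-0.11), Mmp11 (-0.17), Mmp15 (-0.08), Mmp23 (-0.08), Mmp28 (-0.12) and Adamtsl1 (-0.02), while Adamts19 came to 0.00. Summing with overlapping genes reversed Adamts4 (0.29) and Mmp19 (0.27). Among the members named for their values, directions also reversed when 1 library was left out for Adamts1 (-0.24 to 0.01), Adamts2 (-0.17 to 0.16), Adamts5 (-0.05 to 0.27), Mmp11 (-0.03 to 0.11), Mmp9 (-0.08 to 0.51) and Timp2 (-0.19 to 0.03), none of which was called, and among the others for Adamts4, Adamts16, Adamts19, Adamtsl1 and Mmp19. For members under a few CPM, such as Adamts18 and Timp4 (8 to 24 counts a library), counting error adds to the spread.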
